A study of Arabidopsis thaliana with 24 samples.

Results

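In rosettes of wild-type Arabidopsis thaliana, 119 genes had transcript levels at least 3 times as high under spider mites as under caterpillars and as in uninfested plants. They were chosen from the 32833 genes of the count table by their mean CPM (the count of a gene per 1000000 counts of its library). The ratio of the mite mean to the caterpillar mean and to the uninfested mean had to reach 3 both in primed and in not-primed plants. The mean under mites had to reach 5 CPM in both kinds of plant, which 14237 genes did. Of the 125 genes that met these conditions, 6 were left out by name (PR1, PR2, BGLU22, TPS02, CRK13 and AT1G76640), and all 119 others passed the filter on low counts. The rule named 12 genes to leave out, and the others, PBS3 among them, did not meet the conditions. The same ratios turned round, for caterpillars over mites and over uninfested plants, were met by 4 genes.

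Primed plants grew from seed treated with methyl jasmonate, the volatile ester of the wound hormone jasmonic acid, and not-primed plants from seed treated with water. Each kind was sampled 24 hours after infestation with the two-spotted spider mite Tetranychus urticae, 24 hours after infestation with Pieris brassicae, the large white butterfly, as caterpillars, or without a pest. The 6 groups had 4 libraries each, with 15852109 to 27986799 counts per library. The labels call the libraries of a group biological replicates and do not say whether each holds the RNA of a single plant or of several.

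Spider mites pierce leaves with stylets and empty single mesophyll cells, and caterpillars chew whole pieces of leaf. Jasmonate signalling is the main defence pathway against chewing herbivores, whereas salicylic acid signalling is best known from infections by biotrophic pathogens and from systemic acquired resistance. Feeding by cell-content feeders such as mites is known to engage both. The 119 genes hold members of the salicylic acid branch, cell-surface receptors and secreted antimicrobial proteins, and also glucosinolate-related and terpenoid genes of the jasmonate branch.

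The promoters below hold elements that were counted in the members' promoters. They are the 250 bases upstream of the annotated gene start in the RefSeq assembly TAIR10.1, written from 5′ to 3′ on the strand of the gene. The first belongs to a gene for a secreted protein with a high ratio of mites to caterpillars, the next pair to regulators of the salicylic acid branch, and the last 3 to highly expressed or strongly responding genes with a G-box. Capitals mark the W-box core TTGAC, the core of the element bound by WRKY factors, and the G-box CACGTG, an element bound by basic helix-loop-helix factors such as the jasmonate factor MYC2, on either strand.
EARLI1 (chr4:7406995-7407244, minus strand): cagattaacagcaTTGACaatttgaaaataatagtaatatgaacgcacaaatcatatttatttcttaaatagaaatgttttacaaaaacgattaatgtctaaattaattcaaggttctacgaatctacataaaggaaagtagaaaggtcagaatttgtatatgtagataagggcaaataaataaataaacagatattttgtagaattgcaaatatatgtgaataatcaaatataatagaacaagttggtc
WRKY62 (chr5:352096-352345, minus strand): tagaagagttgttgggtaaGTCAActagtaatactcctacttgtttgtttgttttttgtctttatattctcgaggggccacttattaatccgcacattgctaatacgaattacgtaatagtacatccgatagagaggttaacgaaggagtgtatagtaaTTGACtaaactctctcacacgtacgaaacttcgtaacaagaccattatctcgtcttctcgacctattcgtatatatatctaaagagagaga
SARD1 (chr1:27749249-27749498, minus strand): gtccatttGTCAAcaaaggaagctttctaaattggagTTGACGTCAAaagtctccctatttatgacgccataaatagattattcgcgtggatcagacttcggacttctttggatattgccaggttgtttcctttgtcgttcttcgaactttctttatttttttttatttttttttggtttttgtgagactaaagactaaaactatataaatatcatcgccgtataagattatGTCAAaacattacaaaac
MBP1 (chr1:19352792-19353041, minus strand): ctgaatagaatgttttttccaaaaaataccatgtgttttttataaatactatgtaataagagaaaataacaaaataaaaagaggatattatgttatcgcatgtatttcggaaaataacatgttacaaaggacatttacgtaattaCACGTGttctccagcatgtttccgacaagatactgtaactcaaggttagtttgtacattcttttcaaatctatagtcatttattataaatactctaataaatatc
AT3G28220 (chr3:10523931-10524180, plus strand): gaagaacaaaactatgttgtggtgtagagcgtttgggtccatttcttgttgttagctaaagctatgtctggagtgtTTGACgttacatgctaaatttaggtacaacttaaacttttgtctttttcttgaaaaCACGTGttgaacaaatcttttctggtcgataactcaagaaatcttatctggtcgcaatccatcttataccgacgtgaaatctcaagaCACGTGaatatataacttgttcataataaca
PRN (chr3:21893562-21893811, plus strand): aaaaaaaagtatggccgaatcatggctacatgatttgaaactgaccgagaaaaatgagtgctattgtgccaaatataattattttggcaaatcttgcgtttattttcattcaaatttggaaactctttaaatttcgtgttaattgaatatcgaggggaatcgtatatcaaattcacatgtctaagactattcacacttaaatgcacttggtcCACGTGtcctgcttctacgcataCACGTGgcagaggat

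The W-box core TTGAC was found on either strand in 68.1% of the members' promoters, against 44.9% of the promoters of all 27443 protein-coding genes. The longer forms TTGACC and TTGACT, which hold the core, were found in 52.1% of members and in 28.4% of all genes. The G-box stood in 5.88% of members and in 6.49% of all genes, the GCC box GCCGCC in 0.84% and 1.87%, and TGACG, which overlaps the W-box core where it follows a T, in 20.2% and 18.6%. Mean GC content was 30.8% in the members' windows and 31.5% in all. WRKY62 and SARD1 were chosen for display because they carry the core more than once, and MBP1, AT3G28220 and PRN because they carry a G-box. These matches describe letters in a window, and their share was not tested.

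Every mite library lay above every caterpillar and every uninfested library of its seed treatment in all 119 members. This holds for 12.8% of the 20038 tested genes between mites and caterpillars in primed plants and for 15.8% in not-primed plants, and for 20.5% and 23.6% between mites and uninfested plants. The rule used these comparisons, so the figures describe the selection and were not tested. The median log2 fold change of mites over caterpillars was 2.28 in primed and 2.04 in not-primed plants, and that of mites over uninfested plants was 2.74 and 2.69. At the threshold, PGL5, AT1G51890 and AT3G27400 lay just inside with smallest ratios of 3.01, 3.01 and 3.02, and CRK15, FH8 and AT5G26690 lay just outside at 2.98 each. In rosettes taken whole, a lower level cannot be told apart from fewer cells of an expressing type.

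**Figure D1:**
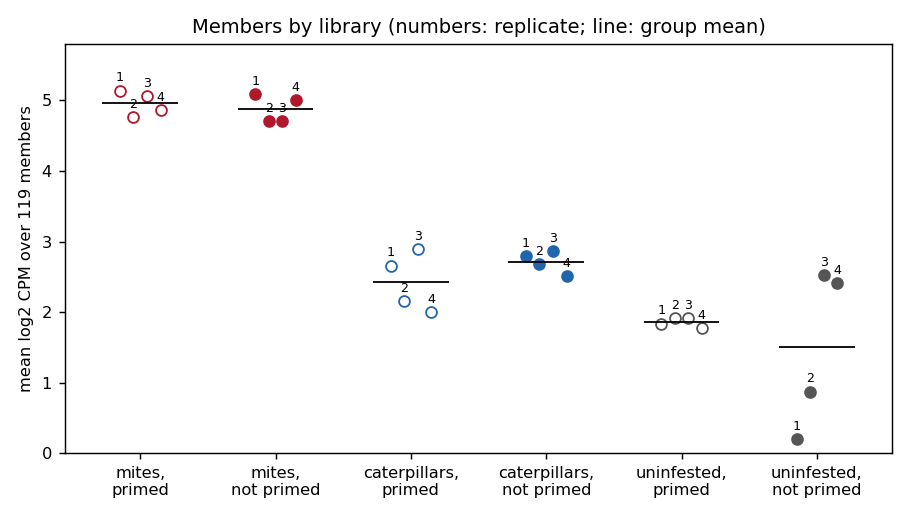
Mean log2 CPM over the 119 members in each of 24 libraries, by group, with the replicate number above each point (open points, primed; filled points, not primed; line, mean of 4). The 8 mite libraries lie between 4.71 and 5.14, the caterpillar libraries between 2.01 and 2.90, and the uninfested not-primed libraries split into a pair at 0.207 and 0.876 and a pair at 2.53 and 2.41.

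The uninfested not-primed libraries fell into pairs that bear on several results. Replicates 1 and 2 were both below replicates 3 and 4 in 106 of 119 members (89.1%), against 34.8% of all tested genes, with a median ratio of 3.97 between the pairs. The mean log2 CPM over the members was 0.207 and 0.876 in replicates 1 and 2, and 2.53 and 2.41 in replicates 3 and 4, with the primed uninfested libraries between them at 1.77 to 1.92. In 47 members replicates 1 and 2 lay below and replicates 3 and 4 above every primed uninfested library. Without replicates 1 and 2 the rule found 80 genes, all among the 119, and without replicates 3 and 4 it found 120. The numbers of calls that rest on these controls are therefore also given without either pair, and what set the pairs apart was not tested. Shares of all tested genes are given for the full fit only. The counts without a pair thus cannot tell a change in the members from one in all genes. In 114 members the not-primed change under caterpillars was smaller without replicates 1 and 2 and larger without replicates 3 and 4.

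The primed caterpillar libraries also differed among themselves. Replicates 1 and 3 lay above replicates 2 and 4 in 66 members (55.5%), against 17.5% of all tested genes. The members' median coefficient of variation was 15% and 21.2% in primed and not-primed plants under mites, 40.8% and 26.7% under caterpillars, and 23.7% and 77.0% without pests. Over all genes with at least 5 CPM under mites it was between 6.98% and 9.0% in the 6 groups. Marker genes showed leaf tissue in every library, with the summed level of 5 rosette genes (small Rubisco subunits, Rubisco activase and light-harvesting proteins) at 37491 to 41650 CPM under mites, 45531 to 50182 CPM under caterpillars and 50239 to 56710 CPM without pests. The root hair factor RHD6 and the senescence protease SAG12 had no count in any library, and the endodermal gene CASP1 and the root gene PRP3 averaged under 0.17 CPM in each group. The 9 markers of other cells and organs summed to 663 to 1017 CPM under mites, 607 to 853 CPM under caterpillars and 360 to 477 CPM without pests, of which PYK10, a beta-glucosidase gene of root ER bodies, averaged 469 and 623 CPM under mites, 496 and 475 CPM under caterpillars and 189.8 and 239.7 CPM without pests in primed and not-primed plants. The summed senescence markers were at 92.7 to 133 CPM under mites and 52.0 to 84.6 CPM under caterpillars. Without pests they were at 80.8 to 105 CPM in primed and 28.8 to 83.8 CPM in not-primed plants. They did not move together: SAG13, NYE1 and WRKY53 averaged higher under mites than without pests in both kinds of plant, and NAP and ORE1 lower. Their part in the results was not tested.

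Of all members AT3G49340, a papain-type cysteine protease gene, had the largest value of its smallest ratio, followed by EARLI1. AT3G49340 had 9.74, 7.83, 8.05 and 8.11 CPM in primed and 7.39, 5.95, 3.87 and 6.68 CPM in not-primed plants under mites. Its caterpillar libraries held 3 counts in all in primed and 4 counts in not-primed plants, and its uninfested libraries 1 count and 5 counts. The gene was thus close to undetected without mites, and the ratio of mites to caterpillars, 212 in primed plants (95% interval 72.3 to 1031) and 140 in not-primed plants (54.3 to 515), carries counting error only (exact Clopper-Pearson interval of the summed counts). Under mites it reached a modest level, between 3.87 and 9.74 CPM.

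EARLI1, which codes for a lipid-transfer-like cell wall protein with a part in systemic immunity, had 57.8, 36.8, 60.9 and 59.2 CPM in primed and 47.9, 47.2, 34.2 and 45.98 CPM in not-primed plants under mites. Caterpillar-fed plants had 2.53, 3.79, 2.03 and 1.94 CPM when primed and 2.79, 4.08, 6.16 and 2.11 CPM when not primed. Uninfested plants had 0.708, 2.27, 2.61 and 2.92 CPM when primed and 0.589, 2.77, 6.4 and 3.56 CPM when not primed. The caterpillar and uninfested libraries overlapped, and the log2 fold change of caterpillars over uninfested plants was 0.28 ± 0.47 in primed and 0.24 ± 0.39 in not-primed plants (SE, n = 4; edgeR quasi-likelihood test, adjusted p = 0.733 and 0.703). The levels in the mite-fed libraries were more than 5 times the highest other library of the same seed treatment.

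EARLI1 lies in a row with AT4G12490 and AT4G12500, and all are members. Their transcripts were 83.2% to 87.3% identical over 744 to 848 aligned bases. AT4G12490 had 70.6, 48.5, 75.4 and 52.95 CPM in primed and 58.8, 51.5, 36.9 and 53.1 CPM in not-primed plants under mites, with 2.49 to 6.83 CPM under caterpillars. AT4G12500 was the weakest of the row, at 17.6, 11.1, 21.8 and 13.3 CPM in primed and 11.8, 10.6, 9.96 and 18.3 CPM in not-primed plants under mites. It was also the one that caterpillars raised in not-primed plants (1.67 ± 0.47; edgeR adjusted p = 0.00941), a call that ended without uninfested replicates 1 and 2 (0.91, adjusted p = 0.239). The promoter of EARLI1 displayed above holds 1 W-box core.

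Of the 11 secreted defence proteins, caterpillars raised 5 in primed and 6 in not-primed plants, 4 of them in both. Of all tested genes 12.1% were raised in primed and 14.2% in not-primed plants, and the class was chosen after the values were seen. The not-primed count was 3 without uninfested replicates 1 and 2 and 8 without replicates 3 and 4. THI2.1, an antimicrobial thionin and a jasmonate-responsive gene, had 59.7, 85.1, 70.6 and 67.7 CPM in primed and 69.2, 59.97, 72.9 and 74.95 CPM in not-primed plants under mites. Under caterpillars THI2.1 had 3.98, 7.63, 6.51 and 7.92 CPM in primed and 5.47, 11.6, 7.61 and 6.18 CPM in not-primed plants, and without pests 1.87, 0.54, 1.23 and 3.09 CPM in primed and 1.58, 0.599, 1.19 and 5.65 CPM in not-primed plants. It rose under caterpillars by 1.99 ± 0.43 in primed and 1.81 ± 0.38 in not-primed plants (edgeR adjusted p = 0.00124 and 0.000836), yet stayed about an order of magnitude under the mite level. TI1, a trypsin inhibitor gene, likewise rose by 2.20 ± 0.34 and 2.16 ± 0.31 (adjusted p = 2.4e-05 and 1.33e-05). Without uninfested replicates 1 and 2 the not-primed change was 1.23 for THI2.1 and 1.49 for TI1, and without replicates 3 and 4 it was 2.78 and 3.40.

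The chitinase gene AT2G43620 had 39.2, 26.9, 34.3 and 34.6 CPM in primed and 38.1, 34.4, 33.8 and 38.5 CPM in not-primed plants under mites, and 1.72 to 4.12 CPM under caterpillars. Its change under caterpillars was 0.53 ± 0.32 in primed plants (edgeR adjusted p = 0.248), and it rose by 0.99 ± 0.29 in not-primed plants (adjusted p = 0.0117), a call that ended without uninfested replicate 1 (0.75, adjusted p = 0.0582). Its neighbour AT2G43590, of the same family, rose in both (1.47 ± 0.38 and 1.33 ± 0.38, adjusted p = 0.00558 and 0.0106), the not-primed call being lost without uninfested replicates 1 and 2 (0.83, adjusted p = 0.205). The defensin gene PDF1.4 had 12.8 to 18.8 CPM in primed and 11.7 to 13.8 CPM in not-primed plants under mites. It rose under caterpillars in primed plants (1.5 ± 0.45, edgeR adjusted p = 0.0165). That call ended without caterpillar replicate 3 (1.14, adjusted p = 0.0915). It also ended without primed uninfested replicate 1 (1.32, adjusted p = 0.0577) or 2 (1.37, adjusted p = 0.0505).

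**Figure D2:**
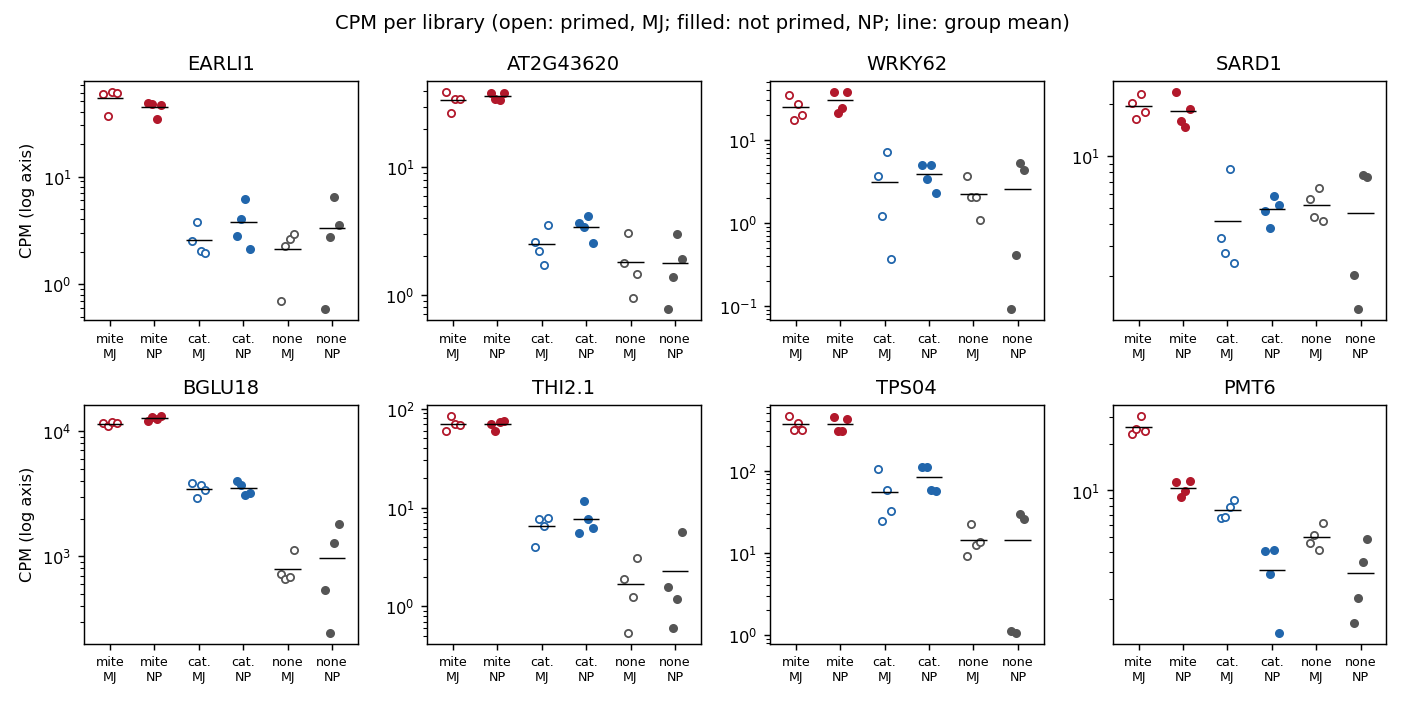
CPM in each library on a log axis for 8 members (open points, primed, MJ; filled points, not primed, NP; line, mean of 4; mite, cat. and none are mite-fed, caterpillar-fed and uninfested plants). The mite libraries lie above all others of their seed treatment in each panel, the caterpillar libraries of BGLU18, THI2.1 and TPS04 lie above most or all uninfested ones, and those of EARLI1, SARD1 and WRKY62 overlap them.

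Whether caterpillars changed the members at all was tested against uninfested plants. The rule set no order between these groups, but it used the same libraries. Low values in either group helped a gene to become a member, and the same values enter this test. The shares called among members, set below beside those of all tested genes, therefore depend in part on the selection. Caterpillars raised 37 of 119 members in primed plants (31.1%), against 12.1% of all tested genes, and 44 in not-primed plants (37.0%), against 14.2%. They lowered 1 member in primed plants and 0 in not-primed plants, against 11.8% and 13.6% of all tested genes (edgeR at an adjusted p under 0.05; DESeq2 also lowered 1 and 0, and 53 members had an unadjusted p under 0.05 in not-primed plants). Every caterpillar library lay above every uninfested one in 40 members in primed and in 34 members in not-primed plants, against 11.0% and 10.2% of all tested genes. The lowered gene, AT4G14390, codes for an ankyrin-repeat protein, and its call (−1.26 ± 0.46, adjusted p = 0.0467) ended in 7 of 8 fits that left out 1 library.

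The primed and not-primed comparisons share no library, but both come from 1 fit with a shared spread per gene, and the rule used both kinds of plant. In both, 33 members were raised, which is 89.2% of the primed and 75.0% of the not-primed calls. The same overlap over all tested genes is not given, so these shares do not set the members apart. Another 4 were called in primed plants only and 11 in not-primed plants only, and 71 members (59.7%) were called in neither. Without uninfested replicates 1 and 2, caterpillars raised 32 members in not-primed plants, 30 of them among the 33, and lowered 7. Without replicates 3 and 4 they raised 103, among them 59 of the 71. For these fits the share of all tested genes is not given.

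**Figure D3:**
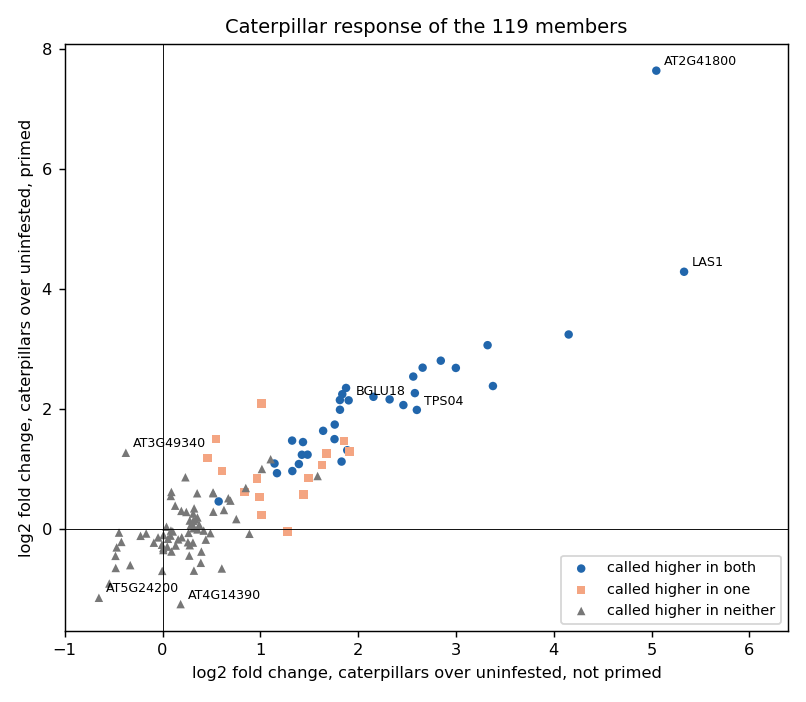
Log2 fold change of caterpillar-fed over uninfested plants for the 119 members, primed plants on the vertical and not-primed plants on the horizontal axis (circles, called higher in both, 33; squares, in 1 of them, 15; triangles, in neither, 71). LAS1 lies at 4.29 in primed and 5.33 in not-primed plants, most triangles lie near 0, and the fitted position of AT2G41800 rests on controls near 0 counts.

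By role, the members of the salicylic acid branch and systemic immunity were not called under caterpillars in either kind of plant (0 of 11), where 12.1% of all tested genes were raised in primed and 14.2% in not-primed plants, a share to which 0 of 11 is close. They had log2 fold changes of −0.61 to 0.51 in primed and −0.47 to 0.67 in not-primed plants. The classes were chosen after the values were seen, so the counts by class depend on that choice. TRX5, whose product acts on the salicylic acid receptor NPR1, was raised by caterpillars in both and stands among the redox genes. EARLI1, which was called in neither, stands among the secreted proteins. SARD1, a transcription factor that drives salicylic acid synthesis, had 20.3, 16.3, 22.9 and 17.8 CPM in primed and 23.4, 15.96, 14.7 and 18.7 CPM in not-primed plants under mites. Under caterpillars SARD1 had 3.36, 2.71, 8.38 and 2.4 CPM in primed and 4.8, 3.8, 5.86 and 5.2 CPM in not-primed plants, and without pests 5.62, 4.43, 6.5 and 4.16 CPM in primed and 2.04, 1.29, 7.74 and 7.5 CPM in not-primed plants. Its caterpillar and uninfested libraries overlapped in both kinds of plant (−0.28 ± 0.39 and 0.13 ± 0.38; edgeR adjusted p = 0.669 and 0.836). Its gene overlaps AT1G73790 on the other strand over 640 bases, and reads of the pair cannot be told apart without strand.

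WRKY62, a WRKY factor downstream of salicylic acid, had 34.8, 17.5, 27.4 and 20.2 CPM in primed and 37.9, 21.2, 24.4 and 37.3 CPM in not-primed plants under mites. Under caterpillars WRKY62 had 3.72, 1.2, 7.24 and 0.369 CPM when primed and 4.97, 3.38, 5.04 and 2.3 CPM when not primed, and in uninfested plants 3.64, 2.05, 2.07 and 1.07 CPM in primed and 0.091, 0.415, 5.26 and 4.37 CPM in not-primed plants. The spread among the libraries without mites was wide and the groups overlapped (0.51 ± 0.67 and 0.67 ± 0.62, adjusted p = 0.647 and 0.466). WRKY46 (0.25 and 0.31), WRKY51 (−0.14 and −0.05) and WRKY60 (−0.08 and −0.17), the salicylic acid hydroxylase gene AT4G10500 (0.07 and 0.31) and the natriuretic peptide gene PNP-A (−0.35 and 0.01) were not called either in primed or in not-primed plants. These counts turn on the control pair: without uninfested replicates 3 and 4 caterpillars raised 9 of the 11 in not-primed plants, and without replicates 1 and 2 they raised 0 and lowered 2, AIG1 (−1.25) and AT5G10760 (−1.08), an apoplastic aspartyl protease gene.

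Caterpillars likewise raised 0 of 7 genes for TIR-domain and NLR-type proteins, the intracellular immune receptors and their relatives, 0 of 5 ankyrin-repeat genes, 0 of 3 calcium-binding protein genes and 0 of 4 transporter genes in either kind of plant. In classes this small 0 is close to the 12.1% and 14.2% of all tested genes. HR4, a relative of the powdery mildew resistance gene RPW8, had 205, 166, 198 and 170.4 CPM in primed and 217, 135, 133 and 173 CPM in not-primed plants under mites. Under caterpillars HR4 had 34.7, 31.9, 72.1 and 28.8 CPM in primed and 52.5, 39.1, 70.1 and 41.5 CPM in not-primed plants, with overlap with the uninfested libraries at 34.1 to 47.9 CPM and 15.3 to 65.3 CPM. CML41, a calmodulin-like protein gene, had 47.6 to 66.0 CPM in primed and 40.3 to 60.3 CPM in not-primed plants under mites, and its change under caterpillars was 0.16 ± 0.39 and 0.34 ± 0.38. Without uninfested replicates 3 and 4, 6 of the 7 TIR-domain and NLR-type genes, all 5 ankyrin-repeat genes, all 3 calcium-binding genes and 3 of the 4 transporter genes were called higher in not-primed plants. Without replicates 1 and 2, 0 of these classes' genes were called higher, and 2 ankyrin-repeat genes and 1 transporter gene were called lower.

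Among 20 cell-surface receptors and kinases, caterpillars raised 1 in primed and 6 in not-primed plants (2 without uninfested replicates 1 and 2, and 17 without replicates 3 and 4). Of all tested genes 12.1% and 14.2% were raised, and 1 of 20 is close to that share. AT1G61610, an S-locus lectin-type kinase gene, was called in both (2.69 ± 0.37 and 2.66 ± 0.36, edgeR adjusted p = 7.31e-06 and 4.97e-06). RLP53, a receptor-like protein gene, had 79.99, 41.3, 54.9 and 42.9 CPM in primed and 92.1, 53.3, 61.5 and 82.1 CPM in not-primed plants under mites. Under caterpillars RLP53 had 5.73, 2.4, 6.56 and 1.24 CPM in primed and 7.98, 9.09, 7.38 and 5.47 CPM in not-primed plants, with a change of 0.85 ± 0.57 in primed plants (adjusted p = 0.312) and a rise of 1.49 ± 0.49 in not-primed plants (adjusted p = 0.0239). The not-primed call ended without uninfested replicate 1 (1.1, adjusted p = 0.0855) and by DESeq2 (adjusted p = 0.0704). By edgeR it also ended without uninfested replicate 2 (1.16, adjusted p = 0.09) and without caterpillar replicate 2 (1.36, adjusted p = 0.065). The same held without uninfested replicates 1 and 2 (0.60, adjusted p = 0.393) and with the groups compared alone (1.5, adjusted p = 0.118). The cysteine-rich receptor-like kinases CRK5, CRK6, CRK12 and CRK38, the receptor-like protein RLP23, which recognises a peptide of microbial origin, and the wall-associated kinase-like gene WAKL10 were not called, with changes between −0.44 and 0.39. CRK12 had 14.9 to 17.2 CPM in primed and 13.4 to 17.7 CPM in not-primed plants under mites, against 0.737 to 3.59 CPM in all other libraries.

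At the other end, all 5 genes of the ER body and of myrosinase-associated proteins were raised by caterpillars in both kinds of plant, by 1.74 to 2.25 in primed and 1.76 to 2.46 in not-primed plants. Of all tested genes 12.1% and 14.2% were raised. The class was chosen after the values were seen, so the count depends on that choice. ER bodies are organelles of the Brassicales that store beta-glucosidases. BGLU18, the main beta-glucosidase of the leaf ER body, had the highest level of all members under mites, on average 4858 FPKM in primed and 5386 FPKM in not-primed plants (fragments scaled by transcript length and library size, the authors' values). In CPM it had 11534, 10986, 11716 and 11636 in primed and 12110.0, 12912, 12406 and 13272 in not-primed plants under mites, and 3829, 2947, 3685 and 3359 CPM in primed and 4002, 3681, 3071.2 and 3195 CPM in not-primed plants under caterpillars. Uninfested plants had 721, 655, 681 and 1131 CPM when primed and 535, 245, 1270.0 and 1813 CPM when not primed. The mite, caterpillar and uninfested libraries thus formed 3 steps without overlap, and caterpillar-fed plants exceeded uninfested ones by 2.14 ± 0.33 in primed and 1.90 ± 0.33 in not-primed plants (edgeR adjusted p = 2.41e-05 and 9.14e-05).

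TSA1, which lies next to BGLU18 and codes for a protein of ER body formation, followed the same 3 steps, with 1714 to 1840 CPM in primed and 1877 to 2263 CPM in not-primed plants under mites. It rose under caterpillars by 2.25 ± 0.32 and 1.84 ± 0.31 (adjusted p = 9.54e-06 and 9.17e-05). MBP1, a myrosinase-binding protein gene, had 1413, 1202, 1413 and 1375 CPM in primed and 1174, 1277, 1290.3 and 1390.0 CPM in not-primed plants under mites, and rose under caterpillars by 2.16 ± 0.33 and 2.32 ± 0.33 (adjusted p = 1.95e-05 and 8.15e-06). The lectin gene AT1G52000, near MBP1 on the chromosome, rose by 2.07 ± 0.27 and 2.46 ± 0.27. All 5 kept their calls in not-primed plants without either pair of uninfested replicates.

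The 3 terpenoid genes were raised by caterpillars in both kinds of plant as well, beside 12.1% and 14.2% of all tested genes. This class too was chosen after the values were seen. TPS04, the geranyllinalool synthase that starts the synthesis of the volatile homoterpene TMTT, had 466, 312, 383 and 309 CPM in primed and 444, 302, 306 and 425 CPM in not-primed plants under mites. Caterpillar-fed plants had 105, 24.4, 58.4 and 32.3 CPM of it when primed and 109.8, 110.2, 57.2 and 55.8 CPM when not primed, and uninfested plants 9.16, 22.2, 12.3 and 13.4 CPM in primed and 1.13, 1.06, 29.7 and 25.4 CPM in not-primed plants. Its rise under caterpillars was 1.98 ± 0.58 in primed and 2.60 ± 0.58 in not-primed plants (edgeR adjusted p = 0.0136 and 0.00131), and the primed call ended without caterpillar replicate 1 (1.44, adjusted p = 0.0862). CYP82G1, the cytochrome P450 of the last step to TMTT, rose by 2.38 ± 0.57 and 3.38 ± 0.57, and had 22.2 to 37.0 CPM in primed and 17.4 to 33.1 CPM in not-primed plants under mites. LAS1, lanosterol synthase, had 40.6 to 65.6 CPM and 39.7 to 83.7 CPM there, 21.5, 2.78, 12.7 and 13.8 CPM in primed and 24.3, 11.2, 7.64 and 17.4 CPM in not-primed plants under caterpillars, and at most 1.11 CPM without pests, a rise of 4.29 ± 0.58 and 5.33 ± 0.62 (adjusted p = 5.39e-06 and 7.01e-07). All 3 kept their calls in not-primed plants without either pair of uninfested replicates, with changes of 1.66 (TPS04), 2.51 (CYP82G1) and 4.64 (LAS1) without replicates 1 and 2 and of 6.21, 5.79 and 6.68 without replicates 3 and 4.

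Of the redox genes, TRX5, a thioredoxin known to act on the salicylic acid receptor NPR1, rose under caterpillars by 1.24 ± 0.37 in primed and 1.48 ± 0.38 in not-primed plants, and averaged 290 FPKM and 285 FPKM under mites. Its not-primed change was 0.68 without uninfested replicates 1 and 2 and 3.42 without replicates 3 and 4. The neighbouring methionine sulfoxide reductase genes MSRB7, MSRB8 and MSRB9 are all members. MSRB9 was raised by caterpillars in both kinds of plant (1.5 ± 0.38 and 1.76 ± 0.36, edgeR adjusted p = 0.00533 and 0.00061) and MSRB8 in neither (−0.23 ± 0.65 and −0.09 ± 0.60). MSRB7 had a change of 1.29 ± 0.65 in primed plants (adjusted p = 0.155) and rose by 1.91 ± 0.56 in not-primed plants (adjusted p = 0.0121), a call that ended by DESeq2 (adjusted p = 0.086) and without uninfested replicates 1 and 2 (0.93, adjusted p = 0.196). Whether these genes differ from each other was not tested.

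Of 7 cell wall genes, caterpillars raised 4 in primed and 3 in not-primed plants (3 without uninfested replicates 1 and 2, and 5 without replicates 3 and 4), among them CCR2, a cinnamoyl-CoA reductase gene of lignin synthesis (1.31 ± 0.36 and 1.89 ± 0.37), and the pectate lyase gene AT3G27400 (1.09 ± 0.14 and 1.15 ± 0.13). Beside the counts of the cell wall class and of the lipase class below stand 12.1% and 14.2% of all tested genes. The extensin gene EXT4 rose in primed plants (1.18 ± 0.24, edgeR adjusted p = 0.000714) and had a change of 0.46 ± 0.24 in not-primed plants (adjusted p = 0.155). Of 4 lipase genes caterpillars raised 2 in both, AT1G54020 (2.15 ± 0.36 and 1.81 ± 0.34) and MPL1 (2.26 ± 0.50 and 2.58 ± 0.48). Without uninfested replicates 1 and 2, 2 lipase genes were higher and 1 lower in not-primed plants, and without replicates 3 and 4, 3 were higher. AT1G54020, a GDSL-type lipase gene, had 259, 226, 261 and 263 CPM in primed and 263, 229, 248 and 302 CPM in not-primed plants under mites, against 12.7 to 40.2 CPM and 19.9 to 28.3 CPM under caterpillars. Its caterpillar libraries lay above all uninfested ones of their seed treatment.

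The 34 members outside these classes held several of the most abundant. AT3G28220, a TRAF-like family gene, averaged 1911 FPKM in primed and 2116 FPKM in not-primed plants under mites, and rose under caterpillars by 2.54 ± 0.32 and 2.56 ± 0.32 (edgeR adjusted p = 1.82e-06 and 1.65e-06). PGL5, a 6-phosphogluconolactonase family gene, averaged 532 and 545 FPKM under mites and rose under caterpillars by 2.35 ± 0.25 and 1.88 ± 0.24. TAT3, a tyrosine aminotransferase gene and jasmonate marker, had 2030.2, 1367, 1707 and 1409.9 CPM in primed and 2405, 1615, 1540.4 and 1974 CPM in not-primed plants under mites. Without pests it had 187, 179, 151 and 105 CPM in primed and 4.98, 8.85, 262 and 296 CPM in not-primed plants, and the not-primed libraries fell into the pairs named above. TAT3 was not called under caterpillars (0.88 ± 0.66 and 1.59 ± 0.67, adjusted p = 0.377 and 0.0824), and it was in not-primed plants without uninfested replicate 3 or 4.

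Also among these 34, the nuclease gene ENDO2 (3.24 ± 0.43 in primed and 4.15 ± 0.42 in not-primed plants), PRN, a pirin gene (2.68 ± 0.34 and 3.00 ± 0.33), and AT5G52390 (3.06 ± 0.56 and 3.32 ± 0.46) were among those with the largest rises under caterpillars. AT2G41800 had 1.55, 1.26, 1.56 and 0.415 CPM in primed and 2.06, 1.58, 2 and 1.21 CPM in not-primed plants under caterpillars, with 0 counts in the 4 primed and 4 counts in the 4 not-primed uninfested libraries. Against a floor of 3 counts over the group this is at least 29.8-fold higher in primed plants, and the ratio in not-primed plants was 36.2 (95% interval 13.9 to 135, counting error only). The weakest called rises were those of AT3G28270, a membrane protein gene (0.46 ± 0.12 and 0.57 ± 0.12). The values of AT3G28290 may be shared with AT3G28300, whose transcript was identical to it over 1672 aligned bases.

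**Figure D4:**
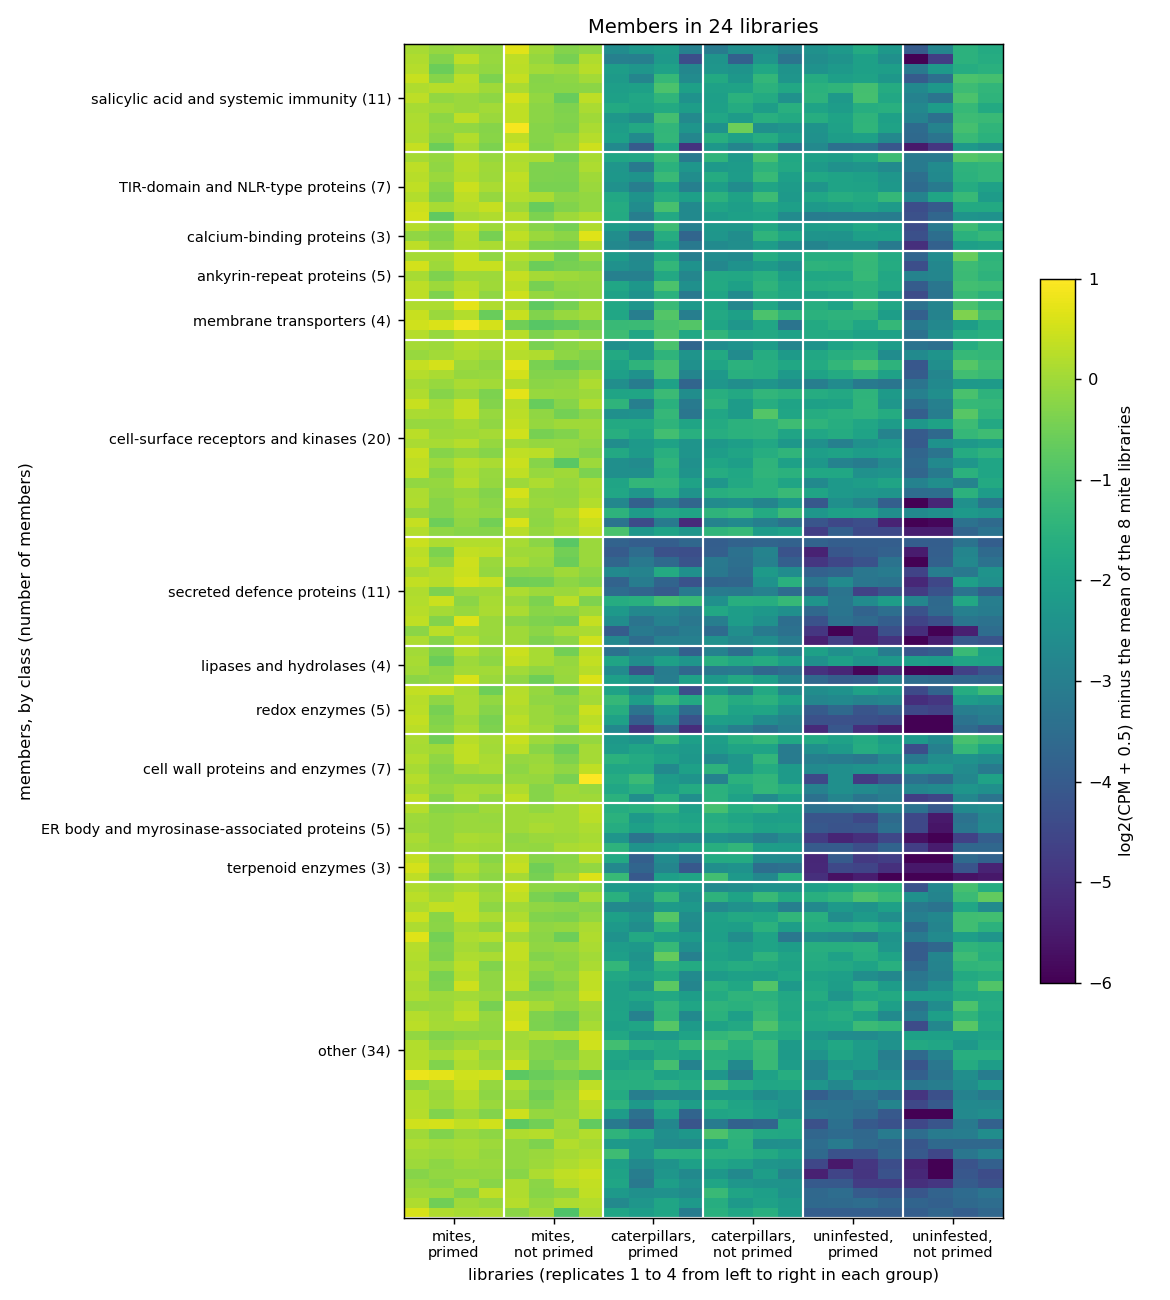
Log2(CPM + 0.5) of each member minus its mean over the 8 mite libraries, in 24 libraries (columns, replicates 1 to 4 within each group) and 119 members (lines of cells, by class and within a class by the not-primed caterpillar change, lowest at the top). The uninfested columns are darker than the caterpillar ones in the ER body and terpenoid classes, similar to them in the salicylic acid class, and darkest in not-primed replicates 1 and 2.

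The G-box was found in 6 of the 33 promoters of members raised by caterpillars in both kinds of plant (18.2%) and in 1 of the 71 of members called in neither (1.41%), against 6.49% of all protein-coding genes. AT3G28220 and PRN carry it at a pair of places each and MBP1 and PGL5 once, and the 1 in the other set belongs to WRKY51. The W-box core stood in 57.6% of the 33 and in 70.4% of the 71. The counts of G-boxes are small and were not tested.

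Under mites, 3 members passed the test between seed treatments. Of 119 members, 2 were higher and 1 lower in primed than in not-primed mite-fed plants (2.52%), against 6.36% of all tested genes, and the median log2 fold change was 0.03. The rule asked for a high level under mites in both kinds of plant, which left out genes high in only 1 of them. The members also varied more between replicates than other genes did in every group. Shares called for priming, here and below, are therefore not directly comparable with those of all genes. In 7 members every primed mite library lay above every not-primed one, and in 3 below, against 6.61% of all tested genes above and 5.66% below. PMT6, a sugar and polyol transporter gene, had 23.3, 25.05, 30.4 and 24.3 CPM in primed and 11.4, 9.05, 9.91 and 11.5 CPM in not-primed plants under mites, without overlap (1.3 ± 0.23; edgeR adjusted p = 0.000414). AT1G15125, a methyltransferase gene, had 36.8, 34.9, 29.9 and 30.6 CPM in primed and 12.2, 13.8, 15.1 and 12.6 CPM in not-primed plants (1.3 ± 0.20, adjusted p = 6.81e-05). It overlaps AT1G15120 on the same strand over 183 bases, a gene whose level was between 52.4 and 58.5 CPM in the 6 groups.

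AT3G28270 was the member that was lower after priming, with 835, 724, 783 and 795 CPM in primed and 929, 1006, 1089 and 1261 CPM in not-primed plants under mites (−0.45 ± 0.12; edgeR adjusted p = 0.0167). The call ended without not-primed mite replicate 4 (−0.36, adjusted p = 0.0855) and without primed mite replicate 2 (−0.41, adjusted p = 0.0673). The same gene was lower in primed plants under caterpillars (−0.63 ± 0.12, adjusted p = 0.000943) and without pests (−0.52 ± 0.12, adjusted p = 0.00371). Fitted on the mite libraries alone, 8 members were higher and 3 lower after priming. The share of all tested genes in that fit is not given, so the count cannot be set against the 6.36% of the full fit.

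**Figure D5:**
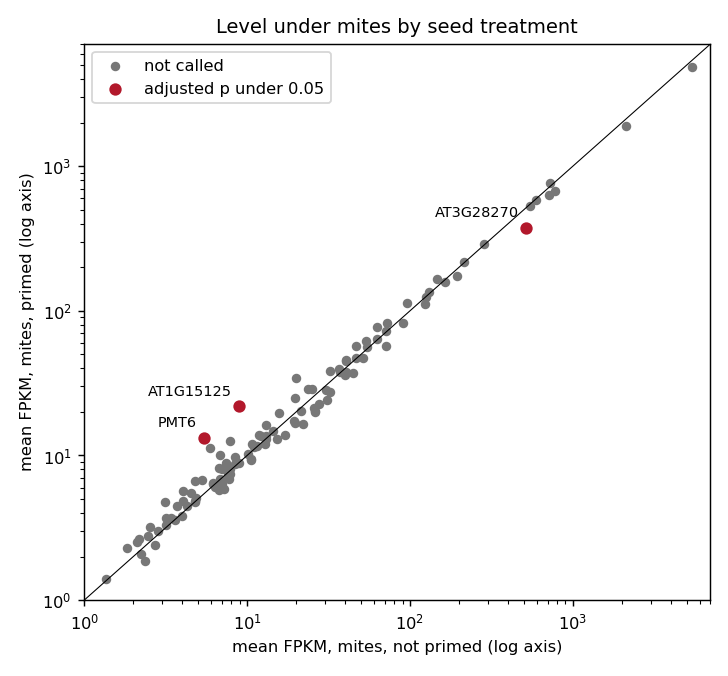
Mean FPKM of each member under mites, primed against not-primed plants, on log axes with the line of equal levels. The members called at an adjusted p under 0.05 are PMT6 and AT1G15125 above the line and AT3G28270 below it, and the others lie close to the line.

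Under caterpillars 1 member was higher and 1 lower after priming, PMT6 (1.27 ± 0.27, edgeR adjusted p = 0.00336) and AT3G28270, against 8.15% of all tested genes. PMT6 had 6.61, 6.75, 7.86 and 8.66 CPM in primed and 4.08, 2.88, 4.16 and 1.21 CPM in not-primed plants there, again without overlap. Of all members 87 were on the lower and 32 on the higher side, with a median of −0.25, beside the split among the primed caterpillar libraries given above. Leaving out primed caterpillar replicate 1 gave 1 higher and 5 lower.

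In uninfested plants priming lowered 1 member, AT3G28270, and raised 0 (edgeR, with 4 at an unadjusted p under 0.05; DESeq2 raised 1), against 14.8% of all tested genes. This count averages over the control pairs. Without uninfested not-primed replicates 1 and 2, 10 members were lower in primed plants, BGLU18 (−0.96) and TSA1 (−1.02) among them. Without replicates 3 and 4, 64 were higher and 1 lower. The 14.8% of all tested genes belongs to the full fit, and the share without either pair is not given.

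The interactions of priming with the pests compare ratios that the rule held at 3 or more in both kinds of plant. They therefore describe the members as chosen, and no difference or lack of one is read from them. The interaction of priming with mites against uninfested plants called 0 of 119 members by edgeR (1 at an unadjusted p under 0.05), beside 1.1% of all tested genes, and DESeq2 called 0 of the 69 to which it gave an adjusted p. The smallest p-values were those of RLP6 (−0.67 ± 0.33), AT2G41800, which had 0 counts in primed controls, and AT1G15125 (0.67 ± 0.35). Without uninfested not-primed replicates 1 and 2 the number called was 0, and without replicates 3 and 4 it was 47, all negative.

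The interaction of priming with mites against caterpillars called 0 members by edgeR (7 at an unadjusted p under 0.05), beside 0.00998% of all tested genes, and 0 by DESeq2 of the 67 with an adjusted p. AT4G16260, a beta-1,3-glucanase gene, had the smallest p-value (2.11 ± 0.65). It had 48.8, 45.1, 56.3 and 50.3 CPM in primed and 26.4, 27.1, 33.5 and 30.1 CPM in not-primed plants under mites, without overlap, and 2.32, 4.1, 2.4 and 1.57 CPM in primed and 2.4, 2.5, 6.68 and 12.6 CPM in not-primed plants under caterpillars. AACT1, an acyltransferase gene (1.77 ± 0.62), and AT1G15125 (0.92 ± 0.31) followed.

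Genes of the pathway and family lists that are no members were tested between mites and caterpillars. The lists were chosen with earlier results of these data known. Their counts, here and in the next paragraph, depend in part on that choice. Set beside the shares of all tested genes, they are therefore no independent test of a pathway or family. The counts hold genes that met the ratios and were left out by name, among them PR2, CRK13 and TPS02. The direction of these was set by the rule, and their calls add nothing to it. PR2 counts both in the salicylic acid list and among chitinases and glucanases. Of 26 other genes of the salicylic acid and N-hydroxypipecolic acid pathway, 17 were higher under mites than under caterpillars in primed and 19 in not-primed plants, and 0 were lower, against 11.5% and 11.9% of all tested genes called higher. PR2, which met the ratios and was left out by name, was higher by 3.25 ± 0.49 and 3.26 ± 0.49, PBS3, an enzyme of salicylic acid synthesis, by 1.71 ± 0.32 and 2.01 ± 0.32, and SAG101, a partner of EDS1, by 1.08 ± 0.17 and 1.16 ± 0.17 (edgeR adjusted p = 3.8e-05 and 1.76e-05 for SAG101). PBS3 was also left out by name, though it did not meet all conditions of the rule. The median log2 fold change of these 26 was 1.11 and 1.05, against −0.0199 and −0.000888 over all tested genes.

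Of 20 other cysteine-rich receptor-like kinase genes 17 were higher under mites than under caterpillars in primed plants, and 16 were higher and 1 lower in not-primed plants, CRK18 by 1.39 ± 0.09 and 1.19 ± 0.09. CRK13, which met the ratios, is among the higher ones in both. Of 12 genes of protein folding in the ER 11 were higher in each kind of plant, with smaller changes, CRT3, a calreticulin gene, at 1.25 ± 0.17 and 1.27 ± 0.17. The stress WRKY factors had 10 and 6 of 17 higher, the camalexin pathway 7 and 3 of 13, the branch of ERF factors and ethylene 9 and 3 of 16, pattern and damage response genes 8 and 8 of 14, and chitinases and glucanases 4 and 5 of 6. Of 12 glutathione transferase genes 3 were higher in primed plants, and 1 was higher and 2 lower in not-primed plants, GSTU1 (−1.10) and GSTU24 (−1.56). Of 4 other terpene and volatile ester genes 2 were higher in each kind of plant, 1 of them TPS02, which met the ratios. Lower in not-primed plants was 1, TPS10 (−1.09). Among 16 jasmonate core genes, of which none is a member, 3 were higher and 1 lower under mites than under caterpillars in each kind of plant. All 16 were higher under caterpillars than in uninfested plants in both, with medians of 3.24 and 3.07, against 12.1% and 14.2% of all tested genes. Other lists held such genes too. Of the 12 glutathione transferase genes 4 were higher and 1 lower in primed plants, and 7 higher and 0 lower in not-primed plants. Of the 26 salicylic acid genes 4 were higher and 1 lower in primed plants, and 2 higher and 0 lower in not-primed plants.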

How the data were processed

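The authors deposited raw counts per gene for 24 libraries and, per library, FPKM values. Reads were aligned with HISAT2 to TAIR10, per the submitters' processing notes. Not given in the sources used here are versions, annotation, counting tool and use of strand. RNA was extracted with RNeasy columns and DNase and made into libraries with NEBNext Ultra reagents, per the labels' protocols. CPM was computed from the deposited counts and column sums. Counts were fitted with edgeR 4.0.16 in R 4.3.3 (TMM, filterByExpr by group, quasi-likelihood F tests on 6 group means, 2-sided), and p-values were adjusted by Benjamini-Hochberg over all 20038 tested genes; SE was derived from the F statistic. Alternatives included DESeq2 1.42.0. The fit was tested on simulated data. Library totals of 15852109 to 27986799 counts limit the precision of weak genes; intervals and floors cover counting error only.

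Symbols, gene positions and promoters came from RefSeq TAIR10.1, looked up by locus tag (119 of 119 members; 32548 of 32833 identifiers). Near-identical copies were sought with BLAST 2.17.0 (at least 95% over 100 bases).

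The members and the 14 gene lists (204 loci) were chosen with earlier results of these data known. Comparisons of mites with other groups were used by the rule and were not tested for members, and the interactions of priming with pests rest on the same ratios. The genes named were the 10 with the largest smallest ratio, the 10 with the highest FPKM under mites, the 6 highest and 6 lowest called in a comparison with 20 or more calls (up to 10 by adjusted p with fewer, 3 by p with none), members on lists, those at the threshold, neighbours of 1 family, and the 3 non-members per list with the smallest adjusted p in not-primed plants. The 12 role classes, the 30 members considered library by library and the other genes named were chosen after their values were seen.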

Additional observations from a re-analysis of the deposited data

Results flagged for a closer look

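In 30 members, each of the 6 groups of 4 libraries was examined for a library far from the other 3, by the gap to its nearest neighbour over the whole range (Dixon's ratio, at its 95% critical value). Chance gives about 1 in 20 groups. Of 180 groups 16 passed, and over all 119 members 46 of 714 did (6.44%).

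In primed plants under caterpillars, replicate 3 was the high library for SARD1 (ratio 0.84; 8.38 CPM, with the others at 2.40 to 3.36 CPM), HR4 (0.865; 72.1 CPM, with the others at 28.8 to 34.7 CPM) and AT4G14390 (0.90; 1.35 CPM, with the others at 0.31 to 0.415 CPM). The same replicate was the highest of the 4 in 69 of 119 members.

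Among mite libraries of primed plants, EARLI1 (0.87; replicate 2 at 36.8 CPM) and AT1G54020 (0.907; replicate 2 at 226 CPM) had 1 low library, and AT2G41800 (0.859; replicate 1 at 10.9 CPM) and AT3G49340 (0.855; replicate 1 at 9.74 CPM) 1 high library. In not-primed mite-fed plants, EARLI1 had a low library (0.86; replicate 3 at 34.2 CPM), and TSA1 (0.91; replicate 4 at 2263 CPM) and PDF1.4 (0.848; replicate 3 at 13.8 CPM) a high one. In all of these the outlying library stayed above every library without mites of its seed treatment.

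In uninfested primed plants the high libraries were those of BGLU18 (0.862; replicate 4 at 1131 CPM), AT4G14390 (0.958; replicate 3 at 2.02 CPM), AT4G16260 (0.889; replicate 2 at 5.84 CPM) and AT3G49340 (1.0; replicate 1 at 0.051 CPM, with the others at 0). In uninfested not-primed plants they were those of CYP82G1 (0.887; replicate 3 at 0.908 CPM) and AT3G49340 (1.0; replicate 3 at 0.239 CPM, with the others at 0).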

How the results depend on the processing

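The number of members was 119 as reported, 316 at a ratio of 2 and 56 at a ratio of 4. It was 114 with TMM-scaled CPM, 93 on the authors' FPKM (88 shared), 166 and 87 at minima of 1 and 10 CPM, 117 on medians, and 100 to 130 when 1 library was left out, 100 without not-primed mite replicate 1. The calls of caterpillars against uninfested plants ranged over 32 to 39 in primed and 40 to 50 in not-primed plants without 1 library. They numbered 42 and 32 with the groups compared alone, and 103 in not-primed plants without uninfested replicates 3 and 4.

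Priming under mites called 2 to 3 members without 1 library and 11 with the groups compared alone, and priming under caterpillars 2 to 6 without 1 library. Priming in uninfested plants called 1 to 3 without 1 library (3 without not-primed replicate 3, 2 without not-primed replicate 4 and 2 without primed replicate 2), 2 by DESeq2, 10 without not-primed replicates 1 and 2, and 65 without replicates 3 and 4. The interaction with mites called 47 without replicates 3 and 4, and both interactions 0 to 0 without 1 library. WRKY51 had no called change under caterpillars in not-primed plants as reported (−0.05 ± 0.59, edgeR adjusted p = 0.965). It was called higher without replicates 3 and 4 (3.76, adjusted p = 0.000356), an alternative that leaves out the higher pair. RLE scaling and no filter on low counts left every one of these counts within 1 of its value as reported. Shares of all tested genes are not given for these alternatives.

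With a replicate block, the calls were 38 and 44 under caterpillars, 3, 2 and 1 for priming, and 0 for both interactions, as without it. The replicate numbers did not pair the libraries: deviations from the group means correlated between −0.175 and 0.2 over 60 pairs, 3 of them over 0.1.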

Other observations

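The members lay on all 5 chromosomes, 37, 16, 24, 22 and 20 from chromosome 1 to 5. Of them 18 stood within 3 genes of another member, as 11 pairs, which include IOS1 and AT1G51790 (leucine-rich repeat kinases) and CRK5 and CRK6. The span of 23 members overlaps another annotated gene, 3607 bases of it for RLP40, and without stated strand use their counts may hold reads of the partner.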
